A study of Mus musculus with 24 samples.

Results

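The genes described here are the adhesion G-protein-coupled receptors whose mouse symbols begin with Adgr, followed by a subfamily letter (a to g, l or v) and 1 digit. The rule found 27 such genes among the 54418 genes of the count table, and 21 of the 27 passed the filter on low counts that precedes the tests. The libraries are RNA-seq profiles of stromal cells from the intestine of C57Bl6-background mice aged 8 to 12 weeks, sorted as Epcam negative and CD45 negative and then by CD31 and by a Rspo3 GFP transgene. CD31, encoded by Pecam1, is a surface marker of endothelium, and R-spondin 3, encoded by Rspo3, is a secreted amplifier of Wnt signalling. Each of the 8 groups had 3 libraries. From the colon these were CD31+ Rspo3+, CD31+ Rspo3-, CD31- Rspo3+ and CD31- Rspo3- cells, and from the small intestine the same 4 kinds of cells. No deletion or treatment is named for any group. Neither the number of mice behind a library, pooling, nor the promoter of the transgene is given in the labels. The p-values therefore set a difference between groups against the scatter of libraries, estimated over all 8 groups together, and that scatter may be only technical. A Rspo3- cell is defined here only by the absence of the reporter.

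Adhesion receptors combine a long extracellular part, built of cell-adhesion modules, with a membrane-spanning receptor core, and many of them cut themselves at a conserved site just outside the membrane. The piece left on the core then begins with a short peptide that can act as a tethered agonist once the outer part is pulled off, which lets these receptors read contact with matrix or with neighbouring cells. In blood and lymph vessels the family is known for Adgrl4 (also called Eltd1) and Adgrf5 (Gpr116), which are widely used as endothelial genes, and for Adgrg3 (Gpr97), described in lymphatic endothelium and granulocytes.

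The libraries held between 8462041 and 29214487 estimated counts (median 17881736), and log2 CPM (counts scaled to library size with TMM normalization factors) correlated at 0.918 to 0.981 within groups. Rspo3 lay between 139 and 449 CPM in the 12 Rspo3+ libraries and between 11.1 and 24.1 CPM in the 12 Rspo3- libraries, and Pecam1 between 347 and 1485 CPM in the 12 CD31+ libraries and between 8.17 and 43.9 CPM in the 12 CD31- libraries, so both genes followed the labelled gates. The labelled CD31+ identity was matched by endothelial markers, which split by Rspo3. The 7 lymphatic markers (Lyve1, Prox1, Flt4, Pdpn, Ccl21a, Reln, Mmrn1) summed to 29890 to 50660 CPM in CD31+ Rspo3+ libraries and to 1909 to 5997 CPM in CD31+ Rspo3- libraries. The 8 blood endothelial markers (Flt1, Kdr, Nrp1, Esam, Emcn, Plvap, Cd36, Sox17) summed to 1659 to 2442 CPM in CD31+ Rspo3+ libraries and to 14180 to 21040 CPM in CD31+ Rspo3- libraries. In sorted bulk samples, fewer cells of a type and less RNA per cell cannot be told apart. Libraries 3 of colon CD31- Rspo3+ cells and of colon CD31+ Rspo3- cells stood apart. The first had 1256 CPM of 8 leukocyte markers, against 81.7 and 56.3 CPM in libraries 1 and 2 of its group, despite the CD45 negative sort, and the second had 9070 CPM of 7 fibroblast markers, against 1352 and 1778 CPM. Results that lose their call or move by more than 1.5 times without these libraries are given both ways below.

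The CD31+ groups carried most of the family's transcripts. Levels between genes were compared per length, as TPM (transcript abundance scaled for gene length and library size, from the deposited log2 values). The 27 genes together summed to 954.8 ± 62.38 TPM in colon CD31+ Rspo3+ cells and to 1172 ± 150.4 TPM in colon CD31+ Rspo3- cells (SD, n = 3 each). In CD31- cells of the colon the sums were 233.1 ± 10.65 TPM with and 223.4 ± 52.5 TPM without the Rspo3 reporter. In the small intestine the sums were 1438 ± 23.94 and 1128 ± 115.5 TPM in CD31+ Rspo3+ and CD31+ Rspo3- cells, and 204.5 ± 31.43 and 169.3 ± 32.92 TPM in CD31- Rspo3+ and CD31- Rspo3- cells.

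The gene that made up the sum differed by gate. In CD31+ Rspo3+ cells, Adgrg3 alone accounted for 64.4 ± 6.64% of the family's TPM in the colon and 77.2 ± 5.82% in the small intestine. In CD31+ Rspo3- cells, Adgrl4 led with 36.5 ± 1.46% in the colon and 30.6 ± 3.87% in the small intestine, followed by Adgrf5 with 25.2 ± 2.73% and 27.0 ± 4.07%, and by Adgrg1 with mean levels of 212.6 and 199.4 TPM. In CD31- Rspo3+ cells the first place was held by Adgrd1, also known as Gpr133, with 35.3 ± 8.81% in the colon and 29.7 ± 1.51% in the small intestine. In CD31- Rspo3- cells it was held by Adgre5, the receptor known as CD97, with 52.0 ± 7.10% and 46.2 ± 4.11%. The order of the leading genes was thus the same in the 2 tissues for each of the 4 gates at the first place, while Adgrd1 and Adgre5 in CD31- Rspo3+ cells of the colon, at 82.8 ± 23.4 and 70.0 ± 8.64 TPM, lay within each other's spread. The shares of Adgrl4 and Adgrf5 in small-intestine CD31+ Rspo3- cells, given above, lay within each other's spread as well.

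**Figure D1:**
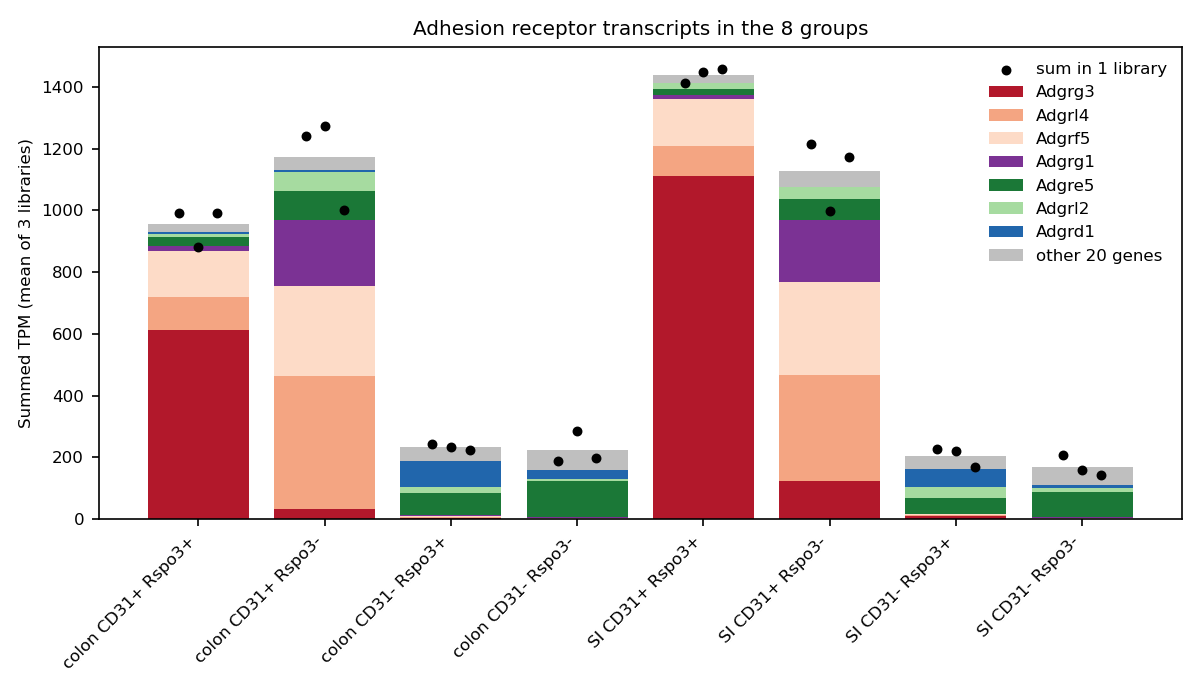
Stacked bars give the mean TPM over 3 libraries of each named gene and of the other 20 members, in the 8 groups (SI, small intestine), and black points give the family's sum in each library. The CD31+ bars reach 954.8 to 1438 TPM and the CD31- bars 169.3 to 233.1 TPM, with Adgrg3 as the main block in CD31+ Rspo3+ cells of both tissues.

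Adgrg3 and Adgrg1, which differed in opposite directions between the Rspo3 gates of CD31+ cells, are neighbours in the genome. In the GENCODE M21 annotation of GRCm38, Adgrg5, Adgrg1 and Adgrg3 stand in a row on the plus strand of chromosome 8. Adgrg1 spans 94974751 to 95014217 and Adgrg3 spans 95017692 to 95045250, which leaves 3474 bases between them, and Adgrg5 ends 31.5 kb before Adgrg1 begins. No other protein-coding gene lies between the 3. Adgrl4 lies on chromosome 3 at 151437887 to 151545086 on the plus strand, and Adgrf5 on chromosome 17 at 43360451 to 43459557 on the plus strand, 35.7 kb beyond the end of Adgrf1. The 250 bases before the first RefSeq start of each of these 4 endothelial members (RefSeq, GRCm38.p6) are shown. In each CD31+ group the 3 members with the highest TPM were among these 4. Adgrf5 was not called between the CD31+ gates in either tissue. Capitals mark the letters AGGAAG on either strand, a core of the sites bound by ETS factors, the transcription factor family of many endothelial genes. The variant core searched along with it was CGGAAG.

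Adgrg3 (chr8:95017442-95017691, plus strand): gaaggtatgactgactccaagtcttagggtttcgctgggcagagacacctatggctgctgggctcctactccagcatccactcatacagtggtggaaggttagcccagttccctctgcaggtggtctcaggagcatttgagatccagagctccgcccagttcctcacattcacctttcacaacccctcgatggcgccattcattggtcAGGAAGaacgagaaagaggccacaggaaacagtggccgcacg

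Adgrg1 (chr8:94976859-94977108, plus strand): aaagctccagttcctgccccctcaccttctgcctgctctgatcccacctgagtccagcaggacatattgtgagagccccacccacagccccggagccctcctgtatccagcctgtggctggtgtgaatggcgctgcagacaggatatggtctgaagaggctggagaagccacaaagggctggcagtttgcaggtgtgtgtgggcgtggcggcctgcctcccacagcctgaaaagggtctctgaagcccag

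Adgrl4 (chr3:151437632-151437881, plus strand): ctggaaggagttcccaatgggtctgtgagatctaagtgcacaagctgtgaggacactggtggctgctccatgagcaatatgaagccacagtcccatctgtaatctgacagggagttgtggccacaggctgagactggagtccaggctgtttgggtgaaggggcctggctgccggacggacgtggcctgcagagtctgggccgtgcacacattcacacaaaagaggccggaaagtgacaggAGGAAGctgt

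Adgrf5 (chr17:43360181-43360430, plus strand): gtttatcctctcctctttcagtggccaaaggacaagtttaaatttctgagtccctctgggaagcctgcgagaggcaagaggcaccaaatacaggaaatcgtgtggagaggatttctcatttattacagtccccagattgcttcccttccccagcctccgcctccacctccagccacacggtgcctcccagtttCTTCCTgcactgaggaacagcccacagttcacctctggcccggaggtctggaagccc

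The windows of Adgrg3, Adgrl4 and the first start of Adgrf5 held 1 such match each, and the Adgrg1 window held 0. The second RefSeq starts of Adgrf5 and of Adgrg1, not shown, held 0 too. The bases just after the Adgrl4 window and the first Adgrf5 window were not found in a GENCODE transcript of the gene. The Adgrg1 window lies inside the Adgrg1 span given above. Which starts these cells use was not tested. Of the members also called between the CD31+ gates in both tissues but not shown, Adgrg6 held 0 matches and Adgrl2 held 1. No window was found for Adgre5. A match is a run of letters and not a shown binding site, and a window without one says nothing of the factor. Windows were found for 20 of the 27 members, 24 in all, of which 9 held a match. Over all 32851 windows of the same length, 39.2% held one, so the share among members was close to that of promoters in general. The core known for GATA factors, searched as AGATAA on both strands, was in 9.99% of all windows and in none of the 4 shown, and TATAAA was in 12.4% of all windows and in none of the 4 shown.

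The first comparison asked how Rspo3+ endothelium differed from Rspo3- endothelium. In CD31+ cells, Adgrg3 was far higher with Rspo3, and most other vascular members were lower. Of the 21 members tested, 2 were higher and 6 lower in Rspo3+ than in Rspo3- cells of the colon, where 23.1% of all 19050 genes tested passed, 9.52% higher and 13.6% lower. In the small intestine 1 was higher and 6 lower, where 20.1% of all genes passed, 9.23% higher and 10.8% lower. The members' median log2 fold change was -0.54 in the colon and -0.40 in the small intestine, against -0.06 and 0 over all genes tested. The comparisons of CD31+ and of CD31- cells share no libraries with each other. Both come from 1 model with a shared estimate of spread, and whether their cells came from the same mice is not given.

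Adgrg3 had 852, 1093 and 948 CPM in the colon Rspo3+ libraries, against 54.0, 57.6 and 41.4 CPM in the Rspo3- group. It had, in the small intestine, 1626, 1562 and 1927 CPM in Rspo3+ libraries, against 123, 157 and 248 CPM in the Rspo3- group. The groups did not overlap in either tissue. The log2 fold change was 4.24 ± 0.55 (SE) in the colon (adjusted p = 8.49e-06) and 3.27 ± 0.52 in the small intestine (adjusted p = 0.000104) by edgeR's quasi-likelihood test, and both calls held without any 1 library. Each SE given with an edgeR value was worked back from the F statistic of its test.

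Adgrg1, known as Gpr56 and as a receptor for collagen III in the developing cortex, went the opposite way from its neighbour. It had 38.6, 26.8 and 32.8 CPM in the colon Rspo3+ libraries, against 436, 539 and 364 CPM in the Rspo3- group. For the small intestine, it had 23.2, 27.4 and 24.5 CPM with Rspo3, against 478, 281 and 444 CPM without. Every Rspo3- library was above every Rspo3+ library, by edgeR with log2 fold changes of -3.77 ± 0.40 (adjusted p = 6.63e-07) in the colon and -4.00 ± 0.40 (adjusted p = 3.71e-07) in the small intestine. Adgrg6, known as Gpr126 and needed for Schwann cell myelination, had 4.33, 0.894 and 2.06 CPM in colon Rspo3+ libraries, against 70.0, 87.1 and 67.3 CPM in the Rspo3- group. In small-intestine libraries Adgrg6 had 2.02, 0.981 and 0.948 CPM with Rspo3, against 103, 84.1 and 61.5 CPM without. This was the largest log2 fold change among the lower members in both tissues, without overlap, at -4.94 ± 0.53 (adjusted p = 9.42e-07) in the colon, where it came to -5.59 without Rspo3+ library 1, and -5.92 ± 0.57 (adjusted p = 2.1e-07) in the small intestine. Adgrg6 shares exon positions with Gm46212 on the other strand, and the protocol does not mark strand, so reads of that pair cannot be told apart.

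The endothelial genes Adgrl4 and Adgrf5 were present in both CD31+ gates. Adgrl4 had 180.2, 169 and 215 CPM in the colon Rspo3+ libraries, against 806, 809 and 591 CPM in the Rspo3- group. It had, in the small intestine, 162, 185 and 170.2 CPM in Rspo3+ libraries, against 548, 537 and 558 CPM in the Rspo3- group. The groups were apart in both tissues, with log2 fold changes of -1.97 ± 0.56 in the colon (adjusted p = 0.0139) and -1.67 ± 0.55 in the small intestine (adjusted p = 0.0374) by edgeR. The small-intestine call was lost without any 1 of the 6 libraries (adjusted p 0.0688 to 0.112, log2 fold change -1.73 to -1.62), and the colon call without Rspo3+ library 1 (adjusted p = 0.0542) or library 2 (0.0567). Adgrf5, known for surfactant control in lung, had 454, 346 and 517 CPM in colon Rspo3+ libraries, against 979, 759 and 654 CPM in the Rspo3- group. For the small intestine, Adgrf5 had 485, 513 and 295 CPM with Rspo3, against 926, 782 and 687 CPM without. The libraries did not overlap in either tissue, but Adgrf5 missed the threshold in both, at -0.86 ± 0.37 in the colon and -0.89 ± 0.37 in the small intestine (adjusted p = 0.102 in each). It passed by limma (adjusted p = 0.0268 and 0.0228) and in fits of only the compared libraries (0.0211 and 0.0313). The colon difference also passed by edgeR without both libraries that stood apart, at -0.98 (adjusted p = 0.0268).

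Adgrl2, a latrophilin that binds teneurins and FLRT proteins, had 34.0, 20.7 and 25.4 CPM in colon CD31+ Rspo3+ libraries, against 159, 171 and 135 CPM in the Rspo3- group. In small-intestine libraries it had 53.1, 47.5 and 24.5 CPM with Rspo3, against 135, 53.7 and 89.7 CPM without, where library 2 of the Rspo3- group nearly touched the Rspo3+ libraries. The log2 fold change was -2.54 ± 0.34 in the colon (adjusted p = 1.25e-05, edgeR) and -1.15 ± 0.33 in the small intestine (adjusted p = 0.0151). The small-intestine call was lost without Rspo3- library 1 (-0.78, adjusted p = 0.109) or Rspo3+ library 3 (adjusted p = 0.0856), and in a fit of only the 6 compared libraries (adjusted p = 0.0624). Adgre5, which binds the complement regulator CD55, had 63.6, 44.1 and 48.6 CPM in colon Rspo3+ libraries, against 139.5, 191 and 169 CPM in the Rspo3- group. Adgre5 had, in the small intestine, 37.4, 42.8 and 28.8 CPM with Rspo3, against 143, 55.6 and 132 CPM without. Both comparisons were free of overlap, at -1.68 ± 0.28 (adjusted p = 0.000181) and -1.60 ± 0.28 (adjusted p = 0.000324) for colon and small intestine, and both calls held without any 1 library.

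Adgra2, a partner of Reck in Wnt7 signalling known from brain vessels, was the other member higher with Rspo3 in the colon. It had 18.5, 16.1 and 32.5 CPM in CD31+ Rspo3+ libraries, against 7.13, 6.56 and 8.32 CPM in the Rspo3- group, a log2 fold change of 1.61 ± 0.54 (adjusted p = 0.037, edgeR). That call was lost without Rspo3+ library 3 (1.24, adjusted p = 0.159), without any 1 of the Rspo3- libraries (adjusted p 0.0584 to 0.106) and by limma (adjusted p = 0.0536). In the small intestine the values overlapped, with 22.7, 28.9 and 11.5 CPM against 15.4, 2.90 and 9.73 CPM, and the test was not passed (adjusted p = 0.14). The remaining calls concerned genes under 10 CPM, Adgrl3 in the colon (1.02 CPM on average in Rspo3+ cells, 4.78 CPM in Rspo3- cells) and Adgrl1 in the small intestine (4.26 and 8.83 CPM). Adgrl3 was not called by limma (adjusted p = 0.0769) or in a fit of only the compared libraries (0.132), and neither was Adgrl1 (0.336 and 0.135). Adgrl3 was not called either without Rspo3+ library 1 or 3 or Rspo3- library 3, the library high in fibroblast markers (adjusted p 0.057 to 0.255), and Adgrl1 not without Rspo3- library 1 or 3 or Rspo3+ library 2 or 3 (adjusted p 0.0523 to 0.11). Adgrl1 shares exon positions with antisense genes, as do Adgra2, Adgre5, Adgrg2, Adgrl2 and Adgrl3.

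Endothelial markers moved with these results. All 7 lymphatic markers were higher in Rspo3+ than in Rspo3- CD31+ cells in both tissues, 6 of 8 blood endothelial markers were lower (Kdr and Emcn were not called), and no marker of either list was at 0 in any CD31+ library. Of the smooth muscle markers, 6 of 6 in the colon and 5 of 6 in the small intestine were lower. The 6 pericyte markers summed to 118 to 129 CPM in colon Rspo3+ libraries, against 503 to 858 CPM in the Rspo3- group. In the small intestine their sums overlapped, at 362 to 453 CPM with Rspo3 against 308 to 465 CPM without. The part of these cell types in the receptor differences was not tested.

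**Figure D2:**
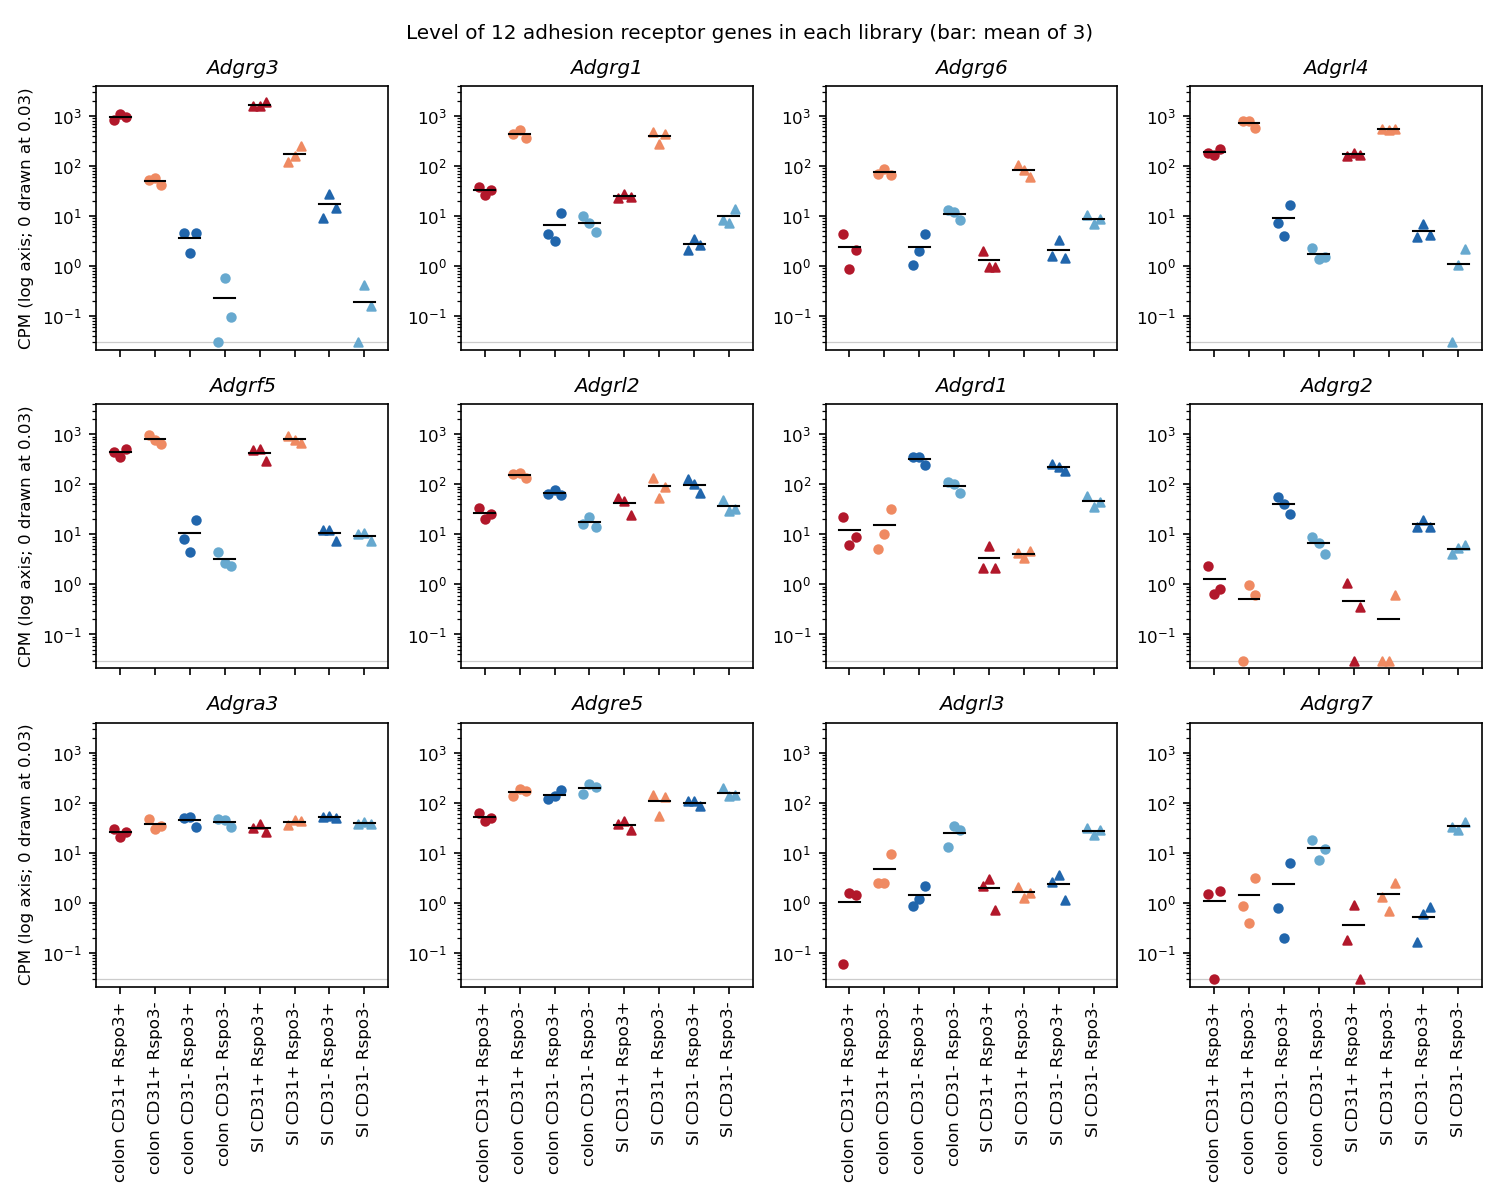
Each panel shows 1 gene, with CPM on a log axis for the 3 libraries of each group (circles, colon; triangles, small intestine, SI) and a bar at the mean; values of 0 are drawn at 0.03. Adgrg3 is highest in CD31+ Rspo3+ libraries (852 to 1927 CPM), Adgrg1, Adgrg6 and Adgrl4 in CD31+ Rspo3- libraries, and Adgrd1 in CD31- Rspo3+ libraries (189 to 358 CPM).

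The same question in CD31- cells concerns the Rspo3+ stroma outside the endothelium, where fibroblast markers summed to 34930 to 104400 CPM. Adgrd1, Adgrl2, Adgrg3 and Adgrl4 were higher with Rspo3 in both tissues, and Adgrl3 and Adgrg6 were lower in both. In the colon 6 members were higher and 2 lower in CD31- Rspo3+ than in CD31- Rspo3- cells, where 9.14% of all genes tested passed, 4.8% higher and 4.34% lower. Small-intestine cells had 5 members higher and 4 lower, where 30.4% of all genes passed, 16.1% higher and 14.3% lower. The members' median log2 fold change was 0.12 in the colon and -0.01 in the small intestine, against 0 and 0.11 over all genes.

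Adgrd1, a receptor that raises cyclic AMP, had 356, 358 and 248 CPM in colon CD31- Rspo3+ libraries, against 109.6, 102 and 68.2 CPM in the Rspo3- group. For the small intestine, it had 254, 226 and 189 CPM in Rspo3+ libraries, against 57.7, 35.2 and 44.4 CPM in the Rspo3- group. No libraries overlapped, and the log2 fold change was 1.78 ± 0.51 in the colon (adjusted p = 0.0339, edgeR) and 2.28 ± 0.52 in the small intestine (adjusted p = 0.00234). Fibroblast markers summed to 62700, 64060 and 34930 CPM in the colon Rspo3+ libraries, against 28010, 32200 and 26950 CPM in the Rspo3- group, where none of 7 was called, and to 102200, 104400 and 92340 CPM against 21490, 19360 and 15540 CPM in the small intestine, where 6 of 7 were higher. Their part in the Adgrd1 difference was not tested. The colon call of Adgrd1 held without Rspo3+ library 3 but was lost without any other 1 of the 6 libraries (adjusted p 0.0742 to 0.14). Adgrl2 had 64.3, 75.6 and 61.9 CPM in colon Rspo3+ libraries, against 16.1, 22.1 and 14.1 CPM in the Rspo3- group. In small-intestine libraries Adgrl2 had 127, 104 and 67.8 CPM with Rspo3, against 49.7, 29.1 and 32.5 CPM without. Its groups were apart in both tissues, at 1.95 ± 0.33 (adjusted p = 0.000852) in the colon and 1.42 ± 0.33 (adjusted p = 0.00235) in the small intestine, and both calls held without any 1 library.

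Adgrl3, another latrophilin, had 0.877, 1.18 and 2.21 CPM in colon CD31- Rspo3+ libraries, against 12.8, 33.9 and 28.3 CPM in the Rspo3- group. It had, in the small intestine, 2.58, 3.54 and 1.12 CPM with Rspo3, against 30.9, 22.8 and 28.6 CPM without. The difference was -4.11 ± 0.78 (adjusted p = 0.00195, edgeR) in the colon and -3.51 ± 0.75 (adjusted p = 0.00127) in the small intestine, without overlap. Adgrg6 had 1.07, 2.03 and 4.29 CPM in colon Rspo3+ libraries, against 13.2, 12.0 and 8.35 CPM in the Rspo3- group, and 1.57, 3.32 and 1.46 CPM against 10.4, 6.85 and 8.64 CPM in the small intestine. Its log2 fold change was -2.15 ± 0.49 in the colon (adjusted p = 0.00746) and -2.04 ± 0.48 in the small intestine (adjusted p = 0.00301), all Rspo3- libraries lying above the Rspo3+ ones. The colon value came to -2.81 without Rspo3+ library 3, and the call was lost in a fit of only the compared libraries (adjusted p = 0.0654).

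Adgrg7, known from the intestinal epithelium as Gpr128, was nearly absent from small-intestine CD31- Rspo3+ libraries, at 0.161, 0.590 and 0.826 CPM, against 32.5, 28.1 and 41.2 CPM in the Rspo3- group. The log2 fold change was -6.01 ± 1.29 (adjusted p = 0.00139, edgeR), and -6.68 without Rspo3+ library 3. In the colon it had 0.780, 0.197 and 6.25 CPM in Rspo3+ libraries, against 17.6, 7.11 and 12.0 CPM in the Rspo3- group. The colon groups did not overlap, yet the test was not passed (-2.32 ± 1.09, adjusted p = 0.204). Without Rspo3+ library 3 the value was -4.70 (adjusted p = 0.0213), without Rspo3+ library 2 it was -1.73 (adjusted p = 0.448), and limma called it (adjusted p = 0.00087). Epithelial markers moved with it. The 8 markers summed to 162, 33.0 and 1572 CPM in the colon CD31- Rspo3+ libraries, against 4129, 1128 and 2707 CPM in the Rspo3- group, and to 36.4, 118 and 125 CPM against 3869, 4131 and 6400 CPM in the small intestine, where 6 of 8 were lower and Lgr5 was higher. Glial markers had the same direction, at 10.7, 6.55 and 32.9 CPM in colon Rspo3+ libraries, against 264, 192 and 125 CPM in the Rspo3- group, and 6.30, 13.8 and 7.77 against 204, 174 and 278 CPM in the small intestine. Smooth muscle markers summed to 504 to 766 CPM in colon Rspo3+ libraries, against 3007 to 4362 CPM in the Rspo3- group, with 6 of 6 lower, and 0 of 6 were called in the small intestine. The 3 markers of interstitial cells of Cajal summed to 39.3 to 58.5 CPM in colon Rspo3+ libraries, against 184 to 229 CPM in the Rspo3- group, with 2 of 3 lower. Mesothelial markers summed to 0 to 0.680 CPM in small-intestine Rspo3+ libraries, against 26.4 to 34.4 CPM in the Rspo3- group, with 5 of 5 lower. The part of these cell types in the levels of Adgrg7, Adgrl3 and Adgrg6 was not tested.

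Adgrg3 was higher with Rspo3 in CD31- cells as well, at levels far under those of CD31+ cells. It had 4.68, 1.84 and 4.61 CPM in colon CD31- Rspo3+ libraries, against 0, 0.586 and 0.0955 CPM in the Rspo3- group. For the small intestine, it had 9.12, 28.3 and 14.9 CPM with Rspo3, against 0, 0.413 and 0.162 CPM without. The small-intestine difference was 6.86 ± 0.76 (adjusted p = 1.68e-06, edgeR), or 5.99 and 7.87 when Rspo3- library 1 or 2 was left out. The colon difference was called as well, at 3.77, with under 10 CPM in both groups. It was 5.92 without Rspo3- library 2, and the call was lost in a fit of only the 6 compared libraries (adjusted p = 0.0864). Lymphatic markers followed, with 208, 215 and 256 CPM in colon CD31- Rspo3+ libraries, against 80.1, 128 and 105 CPM in the Rspo3- group, and with 284, 727 and 372 against 68.5, 54.7 and 45.2 CPM in the small intestine. Library 2 of small-intestine CD31- Rspo3+ cells was highest both in lymphatic markers and in Adgrg3, and the part of lymphatic cells in the difference was not tested. The other endothelial member, Adgrl4, was called higher in both tissues from 9.27 against 1.76 CPM on average in the colon and 5.04 against 1.10 CPM in the small intestine. The colon call of Adgrl4 was lost in a fit of only the compared libraries (adjusted p = 0.0655) and without Rspo3- library 2 or 3 or Rspo3+ library 3 (adjusted p 0.0749 to 0.0814, with a log2 fold change of 2.42 over all libraries and 1.69 without Rspo3+ library 3). The small-intestine value of 2.28 came to 1.57 when Rspo3- library 1 was left out and to 3.68 when library 3 of that group was, and that call was lost in a fit of only the compared libraries (adjusted p = 0.143).

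Adgrf5 was called in CD31- cells only from the colon, with 8.29, 4.39 and 19.3 CPM in Rspo3+ libraries, against 4.51, 2.67 and 2.39 CPM in the Rspo3- group. These groups overlapped at the low end, and the log2 fold change of 1.76 ± 0.40 (adjusted p = 0.0084, edgeR) came to 0.99 (adjusted p = 0.0725) without Rspo3+ library 3, the library high in leukocyte markers. That library was also the highest of its group in pan-endothelial markers (Pecam1, Cdh5, Tie1, Erg, Egfl7, Ecscr). They summed to 101 CPM there, against 50.6 and 31.0 CPM in libraries 1 and 2. Blood endothelial markers summed to 456 CPM there, against 313 and 249 CPM. For Adgrf5 the adjusted p was 0.0521 without Rspo3- library 3, and 0.149 in a fit of only the compared libraries. Adgre1, the macrophage antigen F4/80, had 2.24, 1.84 and 41.7 CPM in colon Rspo3+ libraries, against 0.742, 0.733 and 1.00 CPM in the Rspo3- group. The call on Adgre1 (4.20 ± 1.12, adjusted p = 0.0214) rested on library 3 and was 1.29 (adjusted p = 0.41) without it. It was 4.79 without library 2, and it was also lost without any 1 of the Rspo3- libraries (adjusted p 0.0749 to 0.0833), by limma (0.154) and in a fit of only the compared libraries (0.117). Of the 8 leukocyte markers, 7 were higher in colon CD31- Rspo3+ than Rspo3- cells, all of them present in library 3, and Adgrg5, another gene known from immune cells, had 13.4 CPM in that library against 0.975 and 0 CPM in libraries 1 and 2. The part of leukocytes or of endothelial cells in these values was not tested.

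**Figure D3:**
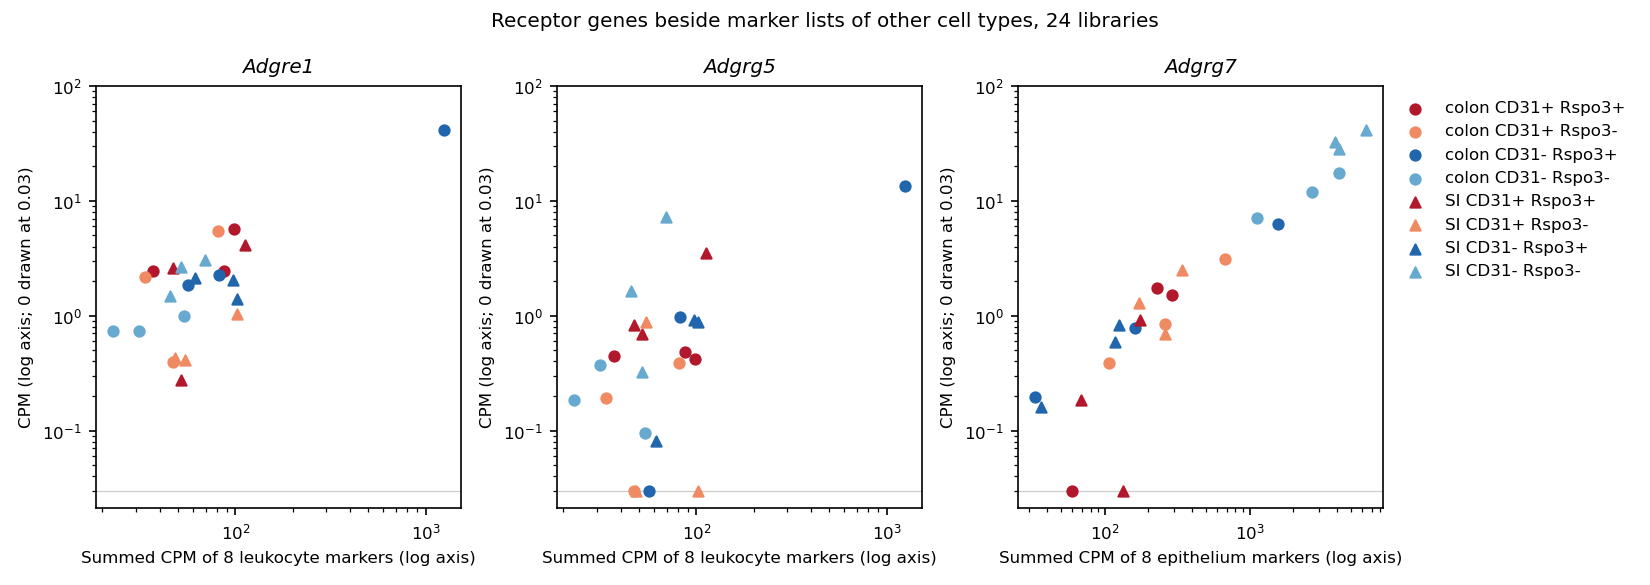
Each point is 1 of the 24 libraries, with the summed CPM of a marker list on the x axis and the CPM of Adgre1, Adgrg5 or Adgrg7 on the y axis, both on log axes, and 0 drawn at 0.03 (SI, small intestine). Library 3 of colon CD31- Rspo3+ cells sits alone at 1256 CPM of leukocyte markers with 41.7 CPM of Adgre1, and the 6 CD31- Rspo3- libraries hold the highest Adgrg7 levels, 7.11 to 41.2 CPM, together with 1128 to 6400 CPM of epithelial markers.

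Adgrg2, an orphan receptor known from the epididymis as Gpr64, had 57.1, 41.2 and 25.6 CPM in colon CD31- Rspo3+ libraries, against 8.90, 6.81 and 4.15 CPM in the Rspo3- group. In small-intestine libraries it had 13.8, 19.2 and 14.3 CPM with Rspo3, against 4.11, 5.37 and 6.10 CPM without. Every Rspo3+ library was above every Rspo3- library in both tissues, but neither difference passed the test (adjusted p = 0.0768 in the colon and 0.185 in the small intestine, edgeR). DESeq2 and limma called the colon difference (adjusted p = 0.0157 and 0.0069), as did fits with no filter on low counts (0.0481) and of only the compared libraries (0.0122), and the last setting also called the small-intestine one (0.00253). Adgre5 had 119, 134 and 183 CPM in colon CD31- Rspo3+ libraries, against 151, 235 and 209 CPM in the Rspo3- group, which overlapped. Adgre5 had, in the small intestine, 107, 106 and 87.7 CPM, against 195, 133 and 143 CPM, apart but not called by edgeR (adjusted p = 0.0852), though called by DESeq2 (0.0267), with RLE scaling (0.043) and in a fit of only the compared libraries (0.00672). The members called from under 10 CPM in the higher group were Adgrg1, lower in small-intestine CD31- Rspo3+ than Rspo3- cells at 2.75 against 9.88 CPM on average, and Adgrv1, higher at 6.19 against 1.28 CPM. Adgrv1 lost its call without any 1 of the 3 Rspo3- libraries or without Rspo3+ library 2 or 3 (adjusted p 0.0699 to 0.143), and with no filter on low counts (0.0548).

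The CD31 comparison separates endothelial from other stromal cells and uses the same libraries as the Rspo3 comparisons. The blood and lymph vessel members Adgrf5, Adgrl4, Adgrg3 and Adgrg1 were higher, and Adgrd1, Adgrg2 and Adgrl1 lower, in CD31+ than in CD31- cells in all 4 pairs of groups. Among Rspo3+ cells, 4 members were higher and 6 lower with CD31 in the colon, where 33.1% of all genes passed (14.9% higher, 18.2% lower), and 4 were higher and 8 lower in the small intestine, where 36.5% passed (16.9% higher, 19.6% lower). Among Rspo3- cells, 6 were higher and 7 lower in the colon, where 32.5% of all genes passed (16.1% higher, 16.4% lower), and 6 were higher and 5 lower in the small intestine, where 41.6% passed (20.1% higher, 21.6% lower).

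For Adgrf5 the log2 fold change between CD31+ and CD31- cells was 5.36 ± 0.45 in colon Rspo3+ cells (adjusted p = 1.67e-08, edgeR), or 6.13 without colon CD31- Rspo3+ library 3, and 7.98 ± 0.50 in colon Rspo3- cells (adjusted p = 6.87e-10). The small-intestine value was 5.36 ± 0.45 in Rspo3+ cells (adjusted p = 9.6e-09) and 6.40 ± 0.47 in Rspo3- cells (adjusted p = 2.71e-09), from CD31- levels of 12.2, 12.0 and 7.24 CPM with Rspo3 and 10.3, 10.6 and 7.34 CPM without. For Adgrl4 it was 4.34 ± 0.62 in colon Rspo3+ cells (adjusted p = 1.68e-05), or 5.07 without colon CD31- Rspo3+ library 3, and 8.72 ± 0.77 in colon Rspo3- cells (adjusted p = 4.29e-08). In the small intestine Adgrl4 differed by 5.10 ± 0.65 in Rspo3+ cells (adjusted p = 2.59e-06) and by 9.05 ± 0.79 in Rspo3- cells (adjusted p = 2.8e-08). The last value rests on CD31- levels of 0, 1.07 and 2.21 CPM and was 8.34 without CD31- library 1 and 10.45 without CD31- library 3.

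For Adgrg3 the CD31 difference was 8.03 ± 0.66 in colon Rspo3+ cells (adjusted p = 1.45e-08, edgeR) and 7.55 ± 0.71 in colon Rspo3- cells (adjusted p = 1.03e-07), the second being 9.66 without CD31- library 2. Small-intestine values were 6.61 ± 0.61 in Rspo3+ cells (adjusted p = 4.17e-08) and 10.20 ± 0.80 in Rspo3- cells (adjusted p = 6.77e-09), the second between 9.33 and 11.23 without CD31- library 1 or 2. Adgrg1 differed by 2.32 ± 0.38 in colon Rspo3+ cells (adjusted p = 8.22e-05), from CD31- levels of 4.48, 3.21 and 11.8 CPM, and by 3.10 without CD31- library 3. In colon Rspo3- cells its difference was 5.93 ± 0.44 (adjusted p = 5.36e-09), in small-intestine Rspo3+ cells 3.19 ± 0.40 (adjusted p = 2.37e-06) and in small-intestine Rspo3- cells 5.34 ± 0.43 (adjusted p = 9.45e-09). Adgrg6 was called higher with CD31 among Rspo3- cells, by 2.74 ± 0.48 in the colon (adjusted p = 0.000187) and 3.26 ± 0.49 in the small intestine (adjusted p = 2.39e-05), and its values in Rspo3+ cells, 0.894 to 4.33 CPM with CD31 and 1.07 to 4.29 CPM without, overlapped.

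Adgrd1 marked the other side. In CD31+ cells it had 22.2, 6.20 and 8.88 CPM in colon Rspo3+ libraries and 2.11, 5.94 and 2.13 CPM in small-intestine Rspo3+ libraries, far under the CD31- libraries given above. The differences were -4.69 ± 0.59 (adjusted p = 3.05e-06, edgeR) in the colon and -6.01 ± 0.63 (adjusted p = 2.35e-07) in the small intestine. They came to -5.39 without colon CD31+ Rspo3+ library 1 and to -6.61 without small-intestine CD31+ Rspo3+ library 2. Among Rspo3- cells, Adgrd1 had 5.14, 10.2 and 31.7 CPM in colon CD31+ libraries and 4.19, 3.32 and 4.65 CPM in small-intestine CD31+ libraries. There the differences were -2.57 ± 0.53 (adjusted p = 0.000978), or -3.65 without CD31+ library 3, and -3.50 ± 0.57 (adjusted p = 6.24e-05). Library 3 of colon CD31+ Rspo3- cells, with 31.7 CPM, is the one high in fibroblast markers. Library 1 of colon CD31+ Rspo3+ cells, with 22.2 CPM, had the most fibroblast markers of its group, at 4268 CPM against 1657 and 2303 CPM. The part of fibroblasts in these values was not tested.

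Adgrg2 stayed at or under 2.34 CPM in every CD31+ library. Its CD31 difference was -5.02 ± 1.03 in colon Rspo3+ cells (adjusted p = 0.000734, edgeR), -4.96 ± 1.06 in small-intestine Rspo3+ cells (adjusted p = 0.000855) and -4.83 ± 1.15 in small-intestine Rspo3- cells (adjusted p = 0.00226). In colon Rspo3- cells Adgrg2 was called as well, from 0.523 CPM on average in CD31+ and 6.62 CPM in CD31- libraries. These sizes depend on single CD31+ libraries with few counts. The small-intestine Rspo3- value was -4.19 without CD31+ library 1 and -9.61 without CD31+ library 3. The small-intestine Rspo3+ value was -6.79 without CD31+ library 1 and -4.28 without CD31+ library 2, the colon Rspo3+ value -5.80 without CD31+ library 1, and the colon Rspo3- value, -3.64, was -4.38 without CD31+ library 2. Adgrl1, a latrophilin, had 6.25, 5.24 and 6.33 CPM in colon CD31+ Rspo3+ libraries, against 19.3, 21.9 and 16.4 CPM in CD31- Rspo3+ libraries. Its difference was -1.69 ± 0.30 there (adjusted p = 0.000195), -1.79 ± 0.30 in colon Rspo3- cells (adjusted p = 0.000134) and -2.22 ± 0.31 in small-intestine Rspo3+ cells (adjusted p = 8.48e-06). In small-intestine Rspo3- cells it was called at -1.25 ± 0.30 (adjusted p = 0.00229), though not by limma (adjusted p = 0.0632).

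For a further group of members the CD31 difference was called in only some pairs or changed its sign with Rspo3. Adgrl2 was higher with CD31 among Rspo3- cells, by 3.15 ± 0.35 in the colon (adjusted p = 9.48e-07, edgeR) and at 92.9 against 37.1 CPM on average in the small intestine. Among Rspo3+ cells it was lower with CD31, at 26.7 against 67.3 CPM on average in the colon and 41.7 against 99.7 CPM in the small intestine, and all 4 differences were called. Adgre5 was lower with CD31 among Rspo3+ cells, by -1.48 ± 0.28 in the colon (adjusted p = 0.000374) and -1.46 ± 0.28 in the small intestine (adjusted p = 0.000338). Adgra3, known as Gpr125, had 30.2, 20.3 and 26.2 CPM in colon CD31+ Rspo3+ libraries, against 50.2, 51.7 and 33.0 CPM in CD31- Rspo3+ libraries. For the small intestine, it had 30.8, 36.8 and 26.1 CPM, against 52.5, 55.4 and 50.3 CPM, and both differences were called by edgeR and neither by limma (adjusted p = 0.122 and 0.0639). Adgrl3 was lower with CD31 among small-intestine Rspo3- cells, by -4.07 ± 0.77 (adjusted p = 0.000298), where the CD31+ libraries had 2.06, 1.24 and 1.55 CPM.

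The smaller calls of the CD31 comparison were Adgrl3 (4.78 against 25.0 CPM on average), Adgra2 (7.34 against 23.6 CPM) and Adgrg7 (1.46 against 12.2 CPM) in colon Rspo3- cells, and Adgrg7 (1.495 against 34.0 CPM) in small-intestine Rspo3- cells, all lower with CD31. In the colon Adgrl3 was lost without CD31+ library 1 or 2, Adgra2 without CD31+ library 1 or 2 or CD31- library 2, and Adgrg7 without CD31+ library 1 or 2 or CD31- library 1 or 3 (adjusted p 0.0709 to 0.147). Without colon CD31+ library 3 the values were -3.37 for Adgrl3 (-2.38 with it) and -4.35 for Adgrg7 (-3.05 with it). Adgrg7 in the small intestine was -4.51, and -5.13 without CD31+ library 3. Adgra1 was called in the same colon comparison from 0, 0 and 2 counts in CD31+ libraries and 15 to 27 counts in CD31- libraries, and was lost without CD31- library 1 or CD31+ library 1 or 2 (adjusted p 0.0595 to 0.0929). Because a CD31+ total of 2 counts carries no usable ratio, no fold is given. Adgrb2, at 0.0970 against 1.48 CPM, and Adgrv1, at 1.20 against 6.19 CPM, were called lower with CD31 in small-intestine Rspo3+ cells, with log2 fold changes of -3.73 and -2.34. Adgrb2 lost its call without any 1 library but CD31+ library 2 (adjusted p 0.0684 to 0.136), without which it was -5.21, and was -0.17 (adjusted p = 0.619) by limma on log2(TPM + 1). Adgrv1 lost it without CD31- library 2 or 3 or CD31+ library 2 or 3 (adjusted p 0.0513 to 0.123), and was -3.13 without CD31+ library 1.

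**Figure D4:**
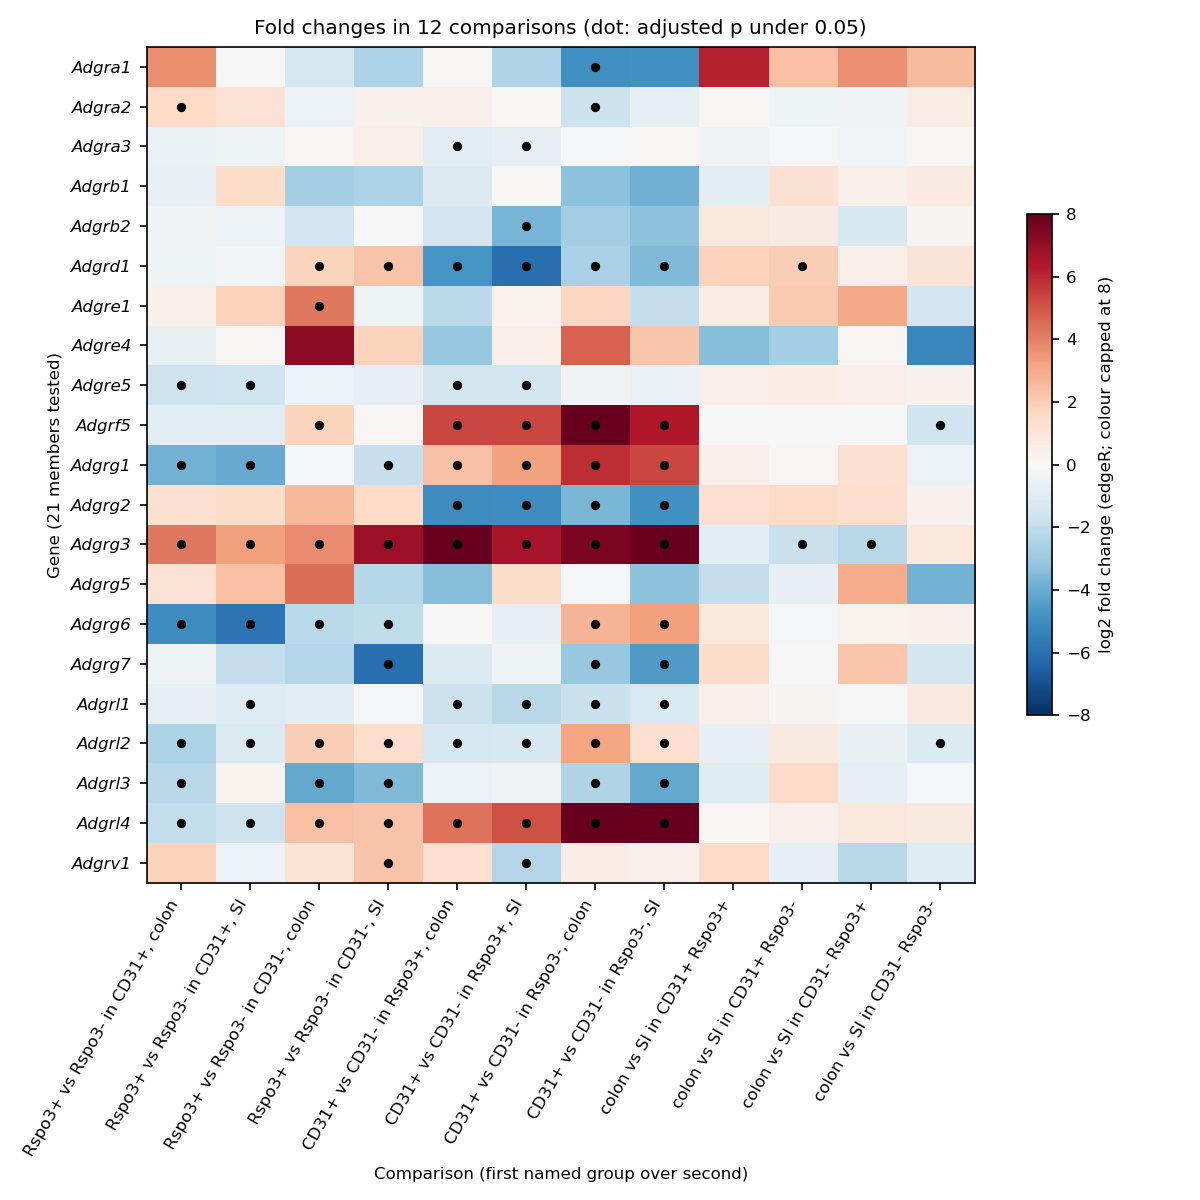
Rows are the 21 members tested and columns the 12 comparisons of pairs of groups (SI, small intestine), coloured by edgeR log2 fold change with the first named group over the second, capped at 8, and a dot marks an adjusted p under 0.05. Adgrf5, Adgrl4, Adgrg3 and Adgrg1 are called higher in all 4 CD31 columns, and the 4 columns of colon against small intestine hold 5 dots in all.

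The tissue comparison asked which members differ between colon and small intestine in the same gate. Few were called, as were few of all genes in most gates. With 21 members tested, these counts do not show whether the family differs from genes in general. In CD31+ Rspo3+ cells 0 of 21 members were called by edgeR (2 had an unadjusted p under 0.05), where 6.35% of all genes passed (2.83% higher, 3.52% lower). DESeq2 called 1 and limma 0. In CD31+ Rspo3- cells 1 was higher and 1 lower in the colon, where 4.43% of all genes passed (2.72% higher, 1.71% lower). In CD31- Rspo3+ cells 0 were higher and 1 lower, against 7.02% of all genes called (3.62% higher, 3.4% lower). In CD31- Rspo3- cells 0 were higher and 2 lower, against 17.6% of all genes (8.79% higher, 8.81% lower).

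Adgrg3 was the member with the most called tissue differences, being lower in the colon in 2 gates. Its CD31+ Rspo3- values, 54.0, 57.6 and 41.4 CPM in the colon and 123, 157 and 248 CPM in the small intestine, did not overlap and differed by -1.79 ± 0.50 (adjusted p = 0.0442, edgeR). That call was lost without any 1 colon library or without small-intestine library 2 or 3 (adjusted p 0.0695 to 0.148). Its CD31- Rspo3+ values, 4.68, 1.84 and 4.61 CPM in the colon and 9.12, 28.3 and 14.9 CPM in the small intestine, did not overlap either and differed by -2.24 ± 0.53 (adjusted p = 0.0134). The second call was lost without colon library 2 (adjusted p = 0.0613) or small-intestine library 2 (adjusted p = 0.0903) and in a fit of only the compared libraries (adjusted p = 0.064). In CD31+ Rspo3+ cells Adgrg3 had 964 CPM on average in the colon and 1705 CPM in the small intestine, with no overlap and an adjusted p of 0.39, while a fit of only the 6 compared libraries called it (adjusted p = 0.0109). Lymphatic markers were lower in the colon by 3 of 7 in CD31+ Rspo3- cells and by 4 of 7 in CD31- Rspo3+ cells. In CD31+ Rspo3+ cells they went the other way from Adgrg3, summing to 39920 to 50660 CPM in the colon and 29890 to 33950 CPM in the small intestine, with Ccl21a the 1 marker called, higher in the colon. Their part in the Adgrg3 differences was not tested.

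Adgrd1 was higher in colon than in small-intestine CD31+ Rspo3- cells, by 1.96 ± 0.55 (adjusted p = 0.0473, edgeR), but by 0.89 (adjusted p = 0.383) without colon library 3, the one with 31.7 CPM and high fibroblast markers. The call was also lost without any 1 of the small-intestine libraries (adjusted p 0.103 to 0.17), by limma (1.08, adjusted p = 0.187) and in a fit of only the compared libraries (adjusted p = 0.206). In CD31+ Rspo3+ cells Adgrd1 did not overlap between colon and small intestine but missed the threshold (adjusted p = 0.0528). It passed by DESeq2 (adjusted p = 0.00583), with no filter on low counts (0.023) and without colon library 2 (0.0336) or small-intestine library 2 (0.0252). Without colon library 1 the value was 1.14 (adjusted p = 0.32), against 1.85 with it. That library had 4268 CPM of fibroblast markers, against 1657 and 2303 CPM in libraries 2 and 3 of its group. The part of fibroblasts in this value was not tested. Adgrf5 in CD31- Rspo3- cells had 4.51, 2.67 and 2.39 CPM in the colon, against 10.3, 10.6 and 7.34 CPM in the small intestine. It was called at 3.19 against 9.42 CPM on average, and lost without colon library 3 (adjusted p = 0.0519) and by limma (-0.75, adjusted p = 0.0862). Adgrl2 in the same cells had 16.1, 22.1 and 14.1 CPM in the colon, against 49.7, 29.1 and 32.5 CPM in the small intestine, at -1.09 ± 0.33 (adjusted p = 0.0247). Adgrl2 lost its call without colon library 1 or 3 or small-intestine library 1 (adjusted p 0.0657 to 0.129), and by limma (adjusted p = 0.104).

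Whether the Rspo3 difference depended on the gate or on the tissue was tested directly. Between tissues it was not shown to differ for any member. In CD31+ cells 0 of 21 members passed the test of the tissue difference (2 at an unadjusted p under 0.05), where 1.93% of all genes passed (0.64% positive, 1.29% negative), and DESeq2 and limma called 0. In CD31- cells 0 passed by edgeR (6 at an unadjusted p under 0.05), where 8.38% of all genes passed (4.91% positive, 3.48% negative), while DESeq2 called 5 and limma 2.

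Between the CD31+ and CD31- gates, the Rspo3 difference was unequal for 7 members in the colon (0 positive, 7 negative), where 17% of all genes passed (6.61% positive, 10.4% negative). It was unequal for 8 in the small intestine (1 positive, 7 negative), where 24.3% passed (11.1% positive, 13.1% negative). A negative value means a lower Rspo3+ over Rspo3- ratio in CD31+ than in CD31- cells. Adgrl2 had the clearest reversal, lower with Rspo3 in CD31+ cells and higher with Rspo3 in CD31- cells in both tissues. Its gate difference was -4.49 ± 0.48 in the colon (adjusted p = 1.33e-06, edgeR) and -2.57 ± 0.46 in the small intestine (adjusted p = 0.000358). Adgrl4 also took opposite directions in the 2 gates, at -4.39 ± 0.83 in the colon (adjusted p = 0.000795) and -3.95 ± 0.86 in the small intestine (adjusted p = 0.00197). Its CD31- side rests on group means under 10 CPM. Both CD31- calls were lost in edgeR fits of only the compared libraries (adjusted p = 0.0655 in the colon and 0.143 in the small intestine). The small-intestine CD31+ call was lost without any 1 library. Adgrg1 differed by -3.61 ± 0.53 in the colon (adjusted p = 5.74e-05) and -2.15 ± 0.53 in the small intestine (adjusted p = 0.00537), and Adgrg6 by -2.79 ± 0.67 (adjusted p = 0.00617) and -3.88 ± 0.69 (adjusted p = 0.000344). Without colon CD31- Rspo3+ library 3 the colon values were -3.66 for Adgrl4, -2.83 for Adgrg1 and -2.13 for Adgrg6, all still called, and Adgrg6 was -3.45 without colon CD31+ Rspo3+ library 1. Adgrl4 in the small intestine was -3.24 without CD31- Rspo3- library 1 and -5.35 without library 3 of that group.

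The other gate differences were smaller or less stable. Adgrf5 passed in the colon, at -2.62 ± 0.55 (adjusted p = 0.00188, edgeR), and was -1.85 without CD31- Rspo3+ library 3. Adgrl3 was the 1 member with a positive value, 3.82 ± 1.02 in the small intestine (adjusted p = 0.00917), being lower with Rspo3 in CD31- cells while its CD31+ values overlapped. Adgrg3 was higher with Rspo3 in both gates, but its small-intestine ratio was lower in CD31+ cells by -3.58 ± 0.93 (adjusted p = 0.00779), a value that rests on CD31- Rspo3- libraries of 0 to 0.413 CPM. It was -2.71 without library 1 and -4.59 without library 2 of that group, and 0.06 (adjusted p = 0.94) by limma on log2(TPM + 1). The colon value of Adgrg3, 0.48, was not called by edgeR, but limma called it at 2.80 (adjusted p = 5.92e-05). Adgrd1 passed in both tissues, Adgre5 in the colon and Adgra3 in the small intestine, with values given among the results for a closer look.

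**Figure D5:**
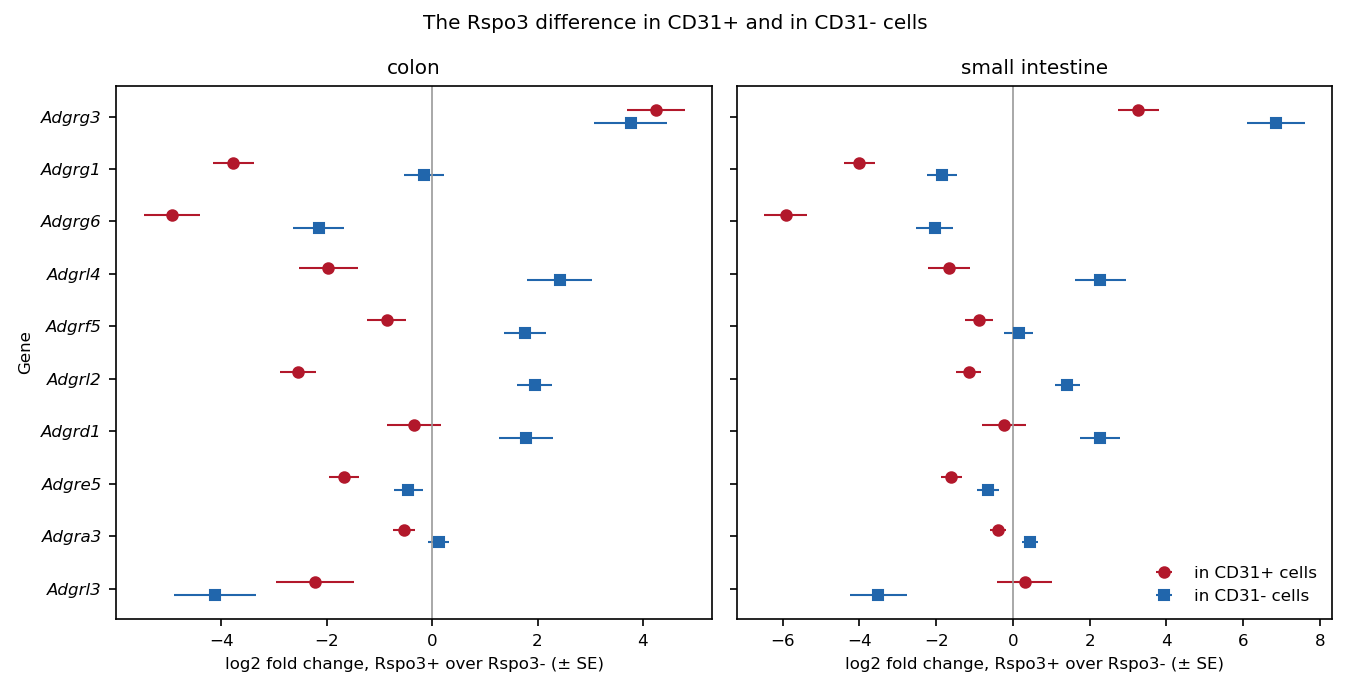
Points give the log2 fold change between Rspo3+ and Rspo3- cells, in CD31+ cells (circles) and in CD31- cells (squares), for 10 members in each tissue. Bars give the standard error, worked back from the F statistic of the test. Adgrl2 and Adgrl4 lie on opposite sides of 0 in the 2 gates, while Adgrg3 is above 0 and Adgrg6 below 0 in both. Adgrl4 averaged under 10 CPM in every CD31- group.

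The remaining members account for the rest of the family. Adgrb1, Adgre4 and Adgrg5 were tested and called by edgeR in none of the 12 pairs of groups, and Adgrb2, Adgra1, Adgre1, Adgra3, Adgra2 and Adgrv1 in 1 or 2. DESeq2 called Adgre4 and Adgrg5 between Rspo3+ and Rspo3- CD31- cells of the colon, and Adgrg5 between colon and small intestine in CD31- Rspo3- cells. Adgrb1 and Adgrb2 belong to the brain angiogenesis inhibitor subfamily and averaged no more than 0.654 and 1.71 CPM in any group. Adgre4, related to F4/80, averaged no more than 1.29 CPM. The 6 members that did not reach the tests were Adgrb3, Adgrf1, Adgrf2, Adgrf3, Adgrf4 and Adgrg4, with 93, 30, 16, 4, 6 and 3 counts over all 24 libraries. At this depth their presence or absence in single groups could not be judged from the filtered fit over all libraries. With no filter on low counts, Adgrb3 was called between CD31+ and CD31- Rspo3+ cells of the small intestine. Its mean level there was 0 TPM with CD31 and 0.144 TPM without. Adgrb3 was called in that comparison as well in several fits that left out 1 library. Within subfamily F, Adgrf5 was thus the member carrying nearly all counts, while Adgrf1, Adgrf2 and Adgrf4, which lie near it on chromosome 17, averaged at most 0.191 CPM in any group.

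Among 33 genes for ligands and binding partners of these receptors, 26 were tested, and the lists were chosen with earlier results of these data known. In CD31+ cells 9 were higher and 5 lower with Rspo3 in the colon (53.8% called, against 23.1% of all genes tested), and 6 higher and 3 lower in the small intestine (34.6%, against 20.1%). Flrt3, an adhesion protein bound by latrophilins, had 81.8, 97.9 and 76.5 CPM in colon CD31+ Rspo3+ libraries, against 15.96, 17.5 and 23.8 CPM in the Rspo3- group, and 264, 463 and 417 CPM against 20.5, 64.4 and 52.1 CPM in the small intestine. Cd55, the partner of Adgre5, was higher at 309 against 103 CPM on average in the colon and 244 against 88.2 CPM in the small intestine. Cd36, on the blood endothelial list too, was lower at 44.2 against 1130 CPM and 96.5 against 1864 CPM. In CD31- cells 4 were higher and 2 lower with Rspo3 in the colon (23.1%, against 9.14% of all genes), and 8 higher and 3 lower in the small intestine (42.3%, against 30.4%). Flrt2 was higher in both, at 104.5 against 16.1 CPM in the colon and 72.3 against 4.62 CPM in the small intestine.

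Of 16 genes for G-protein alpha subunits and other downstream proteins, all were tested. In CD31+ cells 4 were higher and 5 lower with Rspo3 in the colon (56.2% called, against 23.1% of all genes), and 4 higher and 4 lower in the small intestine (50%, against 20.1%). Elmo1, which links Adgrb1 to Rac activation, was higher in all 4 Rspo3 comparisons, and Gnaq and Gna14, 2 subunits of the Gq class, were lower in CD31+ cells of both tissues. In CD31- cells 1 was higher and 1 lower in the colon (12.5%, against 9.14%), and 6 higher and 2 lower in the small intestine (50%, against 30.4%). The 3 Celsr genes, the cadherin-like adhesion receptors of planar polarity that the symbol rule leaves out, were tested too. Celsr1 had 13.5, 21.4 and 16.4 CPM in colon CD31+ Rspo3+ libraries, against 2.74, 1.88 and 0.819 CPM in the Rspo3- group, a log2 fold change of 3.23 ± 0.75 (adjusted p = 0.00343, edgeR), and no other Rspo3 comparison called a Celsr gene.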

How the data were processed

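RNA from sorted intestinal stromal cells was measured by RNA-seq in 24 libraries, 3 in each of 8 groups set by tissue, CD31 and Rspo3 reporter sign, with a Qiagen RNA kit and SMARTseq v4, which does not mark strand, per the labels' protocols. The authors deposited a table of whole-number estimated counts per Ensembl gene and a table of log2(TPM + 1) values. The submitters' processing notes name Salmon 1.3.0, R 4.0.1 and the build mm10.

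Symbols were found for 54096 of 54418 gene IDs (99.4%). Estimated counts were used as whole numbers. One edgeR 4.0.16 model over all 24 libraries (R 4.3.3, TMM scaling, filterByExpr with a minimum count of 10 and a minimum total of 15) gave quasi-likelihood tests, with Benjamini-Hochberg adjustment over 19050 genes and a threshold of 0.05. Each SE is the absolute log2 fold change divided by the square root of the test's F statistic. It is therefore no separate estimate, and it can be too small where a group has few counts. CPM values use TMM-scaled library sizes, and TPM was taken back from the deposited log2 values. Library totals, 8462041 to 29214487, limit precision for members under about 1 CPM. Column names give the group but not which labelled replicate a column is, so library numbers only name libraries. Alternatives were RLE scaling, no filter, only the compared libraries, DESeq2 1.42.0, limma 3.58.1 on log2(TPM + 1) and leaving out each library.

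The genes given full statistics were called members whose higher group averaged 10 CPM or more, up to 8 per comparison, and per-library values were given for members with a group mean of at least 10 CPM called at least once. Members and lists were chosen with earlier results of these data known. Positions are from GENCODE M21 (GRCm38), and promoter windows from RefSeq (GRCm38.p6).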

Additional observations from a re-analysis of the deposited data

Results flagged for a closer look

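The Rspo3 difference (Rspo3+ over Rspo3-, log2) was unequal in the CD31+ and CD31- gates for the following members, because the test of that inequality itself passed by edgeR. Each value is the CD31+ difference minus the CD31- difference, with its standard error and adjusted p.

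In the colon, Adgrl2 had -4.49 ± 0.48 (adjusted p = 1.33e-06), Adgrl4 -4.39 ± 0.83 (0.000795) and Adgrg1 -3.61 ± 0.53 (5.74e-05). Adgrg6 had -2.79 ± 0.67 (0.00617) and Adgrf5 -2.62 ± 0.55 (0.00188). Adgrd1 had -2.12 ± 0.72 (0.0498), which was lost by edgeR without any 1 of 8 libraries (adjusted p 0.0726 to 0.28). It was also lost by limma (0.0765), with RLE scaling (0.051) and with only the compared libraries (0.126). The value came to -1.03 (0.28) without colon CD31+ Rspo3- library 3. It was -2.79 without colon CD31+ Rspo3+ library 1. Adgre5 had -1.23 ± 0.39 (0.0364), lost without any 1 of 7 libraries (adjusted p 0.059 to 0.114) and by limma (0.108).

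In the small intestine, Adgrl4 had -3.95 ± 0.86 (adjusted p = 0.00197), Adgrg6 -3.88 ± 0.69 (0.000344) and Adgrg3 -3.58 ± 0.93 (0.00779). Adgrl3 had 3.82 ± 1.02 (0.00917), Adgrl2 -2.57 ± 0.46 (0.000358) and Adgrg1 -2.15 ± 0.53 (0.00537). Adgrd1 had -2.51 ± 0.77 (0.0211), lost without CD31+ Rspo3+ library 1 or 3 or CD31- Rspo3- library 2 (adjusted p 0.0535 to 0.0624). Adgra3 had -0.85 ± 0.29 (0.0385), lost without any 1 of 11 libraries (adjusted p 0.0527 to 0.123) and by DESeq2 (0.0501), limma (0.0503), RLE scaling (0.0605) and no filter on low counts (0.113).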

How the results depend on the processing

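The 108 member results followed here were those called by the edgeR fit over all libraries, and some under the threshold that the text names. The latter were chosen after their values were seen. Over 1338 alternative values of these results, 1169 kept direction and side of the threshold, 145 kept direction but lost the call, 22 gained one and 2 reversed. Calls that other members gained under an alternative are not among the 22. The reversed ones were the gate difference of Adgrg3, 0.063 by limma in the small intestine (-3.58 by edgeR), and -1.63 in the colon without CD31- Rspo3- library 2 (0.48 with it, range -1.63 to 0.96 with 1 library left out, not called by edgeR; 2.80 and called by limma, adjusted p = 5.92e-05). The cause was not tested. Of 209 alternative counts of members called, 173 stayed within 1.5 times.

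For the tissue difference of the Rspo3 effect in CD31- cells (0 called), RLE scaling called 1, no filter 3, DESeq2 5 and limma 2. Between colon and small intestine, CD31+ Rspo3+ cells (0) gave 1 with no filter, with only the compared libraries and by DESeq2. CD31- Rspo3+ cells (1) gave 2 with no filter, only the compared libraries or limma, and 4 by DESeq2. CD31+ Rspo3- cells (2) gave 1 with only the compared libraries or limma, and CD31- Rspo3- cells (2) gave 5 and 4, of which limma's 4 shared 0 with the 2. The colon Rspo3 comparison in CD31- cells (8) gave 4 with only the compared libraries.

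With 1 library left out, calls ranged from 4 to 6 for Rspo3 in CD31+ cells of the small intestine, 6 to 9 in the colon, 8 to 9 and 4 to 7 in CD31- cells of small intestine and colon. The colon against small-intestine counts ranged from 0 to 1 in both CD31+ gates and 0 to 2 in both CD31- gates, and the tissue difference in CD31- cells from 0 to 4. Without both libraries that stood apart, removed together after the data were seen, the CD31+ Rspo3- tissue count was 0, and Rspo3 in colon CD31- cells gave 6.

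No paired analysis was possible because the columns carry no replicate number. RLE scaling shifted the median of all genes by over 0.1 only for Rspo3 in small-intestine CD31- cells (-0.108) and its tissue difference (0.117). Members under 1 CPM were poorly resolved at this depth, and their few calls came only with no filter on low counts or with libraries left out.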
